A study of Mus musculus with 9 samples.

Results

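The 48 genes described here encode the machinery that copies DNA and the machinery that divides the cell, and they were followed in mouse bone marrow (BM)-derived Mϕs left unstimulated or treated with IL-4 or IL-6. They were chosen by function as a named list, with earlier results of these data known. They were found in the deposited expression table of 53379 genes by their Ensembl identifiers. Of these, 26 act in DNA replication and 22 in mitosis, and all 48 had a mean of at least 0.5 FPKM (fragments per kilobase of exon, scaled to library depth) over the 9 libraries.

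BM cells of wild-type C57BL/6 mice were cultured for 3 days with 10 ng/ml CSF-1 (M-CSF), the growth factor that turns BM progenitors into Mϕs and keeps them dividing. For a further 4 days the control cells received 10 ng/ml M-CSF alone, the IL-4 cells M-CSF with 10 ng/ml IL-4, and the IL-6 cells M-CSF with 100 ng/ml IL-6, so that every group carried M-CSF. The doses and times are those of the sample labels, and other descriptions of the experiment give different ones. Each group holds 3 libraries, numbered #1 to #3, with 29988160 to 39909571 fragments in each.

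A cell copies its DNA once per division. The MCM2-7 helicase is loaded at origins by Cdc6 and Cdt1, is switched on with Cdc45 and the GINS complex, and opens the strands for the polymerases, which the sliding clamp Pcna holds in place. Many of these genes are transcribed at the G1/S transition under E2F factors, whereas mitotic genes such as the B-type cyclins are transcribed later, in G2 and M, by complexes that bind the cell cycle homology region (CHR) and NF-Y.

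Promoters of members from both subsets are shown because the median changes of the subsets differed with IL-6. RefSeq promoters (GRCm38.p6) matched 39 of the 48 members, and 250 bases before the start are printed for 5 of them. Capitals mark the words searched on either strand: the E2F word TTCCCGC, the variant of it spelled TTGGCGC, a further variant TTCGCGC, the last variant TTGCCGC, the CHR word TTTGAA, its variant spelled TTTAAA, and the NF-Y word CCAAT. Neighbouring E2F words can overlap. Mcm5 (chr8:75109259-75109508, plus strand) and Mcm6 (chr1:128359706-128359955, minus strand) encode helicase subunits. Ccnb2 (chr9:70421555-70421804, minus strand) encodes a B-type cyclin, Cdc20 (chr4:118437344-118437593, minus strand) an activator of the anaphase-promoting complex, and Mki67 (chr7:135716380-135716629, minus strand) the proliferation marker Ki-67, which coats mitotic chromosomes.
Mcm5: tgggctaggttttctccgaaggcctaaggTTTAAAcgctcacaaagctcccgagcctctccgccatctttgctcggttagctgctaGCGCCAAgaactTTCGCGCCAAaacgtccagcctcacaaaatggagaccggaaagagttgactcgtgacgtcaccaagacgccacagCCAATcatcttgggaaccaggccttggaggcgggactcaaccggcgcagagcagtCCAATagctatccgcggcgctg
Mcm6: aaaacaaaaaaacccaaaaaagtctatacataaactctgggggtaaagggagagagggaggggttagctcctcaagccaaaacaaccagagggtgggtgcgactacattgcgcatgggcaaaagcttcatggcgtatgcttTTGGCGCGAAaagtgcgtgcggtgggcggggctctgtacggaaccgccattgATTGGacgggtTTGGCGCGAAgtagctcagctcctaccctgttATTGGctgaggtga
Ccnb2: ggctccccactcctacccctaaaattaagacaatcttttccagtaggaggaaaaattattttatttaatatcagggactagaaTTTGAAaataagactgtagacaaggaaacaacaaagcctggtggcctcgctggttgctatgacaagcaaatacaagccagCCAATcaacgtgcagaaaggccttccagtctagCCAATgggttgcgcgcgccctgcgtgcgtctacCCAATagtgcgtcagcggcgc
Cdc20: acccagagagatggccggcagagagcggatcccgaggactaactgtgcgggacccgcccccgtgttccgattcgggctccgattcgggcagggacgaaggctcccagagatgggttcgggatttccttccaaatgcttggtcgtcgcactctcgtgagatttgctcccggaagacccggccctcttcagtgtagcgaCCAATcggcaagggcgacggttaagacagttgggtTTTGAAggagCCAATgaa
Mki67: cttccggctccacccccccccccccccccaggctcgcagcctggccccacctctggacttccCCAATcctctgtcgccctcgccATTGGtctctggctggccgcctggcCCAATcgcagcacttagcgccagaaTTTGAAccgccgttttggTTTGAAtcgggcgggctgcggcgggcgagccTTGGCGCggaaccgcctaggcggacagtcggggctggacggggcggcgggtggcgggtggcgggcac

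From 250 bases before to 50 after the start, an E2F word stood in 13 of 21 replication promoters (61.9%) and in 3 of 18 mitosis promoters (16.7%). Among genes with a mean of at least 0.5 FPKM the share was 19.2%, and 10.9% among all promoters listed. A CHR word stood in 7 of 21 replication promoters (33.3%) and 16 of 18 mitosis promoters (88.9%), against 22.6% and 30.6% in the same backgrounds. CCAAT was held by 61.9% of replication and 88.9% of mitosis promoters, against 42.8% and 41.1%. A match describes the letters of the window and was not tested as a binding site.

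Before the members are compared, 2 features of the libraries bear on every result. Fragments of 14 intestinal marker genes were present at 31.1 to 46.3 per 1e6 fragments in the 3 control libraries and IL-4 #1, but at 0.0990 to 0.245 per 1e6 fragments in IL-4 #2, IL-4 #3 and the 3 IL-6 libraries. Skeletal muscle markers ran the other way, at 1.40 to 2.09 against 8.71 to 17.0 per 1e6 fragments. IL-6 and control thus lie wholly in different sets of libraries, and the set and the treatment cannot be told apart in that comparison. IL-4 #3 stands apart in another way, described with transcript lengths, and the members' counts are therefore given with and without it.

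Markers of the cell types in the culture moved as well. The summed FPKM of 8 macrophage markers was 16619 to 18943 in control, 6025 to 7050 in IL-4 and 20171 to 21275 in IL-6 libraries. With IL-4 against control 6 of the 8 were lower in limma at an adjusted p under 0.05, where 16.3% of all tested genes were lower and 8.55% higher. Of 9 neutrophil markers 8 were lower with IL-4, and their sum was 4943 to 8718, 2210 to 4140 and 8082 to 11216 FPKM in the 3 groups. Of 10 myeloid progenitor markers 9 were tested and 7 were lower with IL-4, with sums of 92.2 to 214, 36.1 to 62.1 and 135 to 231 FPKM. Mast cell and basophil markers went the other way, with 4 of 5 tested higher with IL-4 and sums over 6 genes of 13.1 to 29.6, 49.0 to 82.1 and 5.84 to 23.5 FPKM (Tpsb2 was at 0 in every library). Without IL-4 #3, 7 macrophage markers were lower with IL-4 and 1 higher, and 9 neutrophil and 5 progenitor markers were lower. The mast cell count stayed at 4 higher, and of all tested genes 22.5% were then lower and 15.1% higher. With IL-6 against control over all libraries, 1 macrophage marker was lower, 1 neutrophil and 1 progenitor marker higher, and no mast cell marker passed. Of all tested genes 3.82% were lower and 4.58% higher there. The part of these cells in the members' levels was not tested, and in bulk RNA fewer dividing cells and less RNA per cell cannot be told apart.

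**Figure D1:**
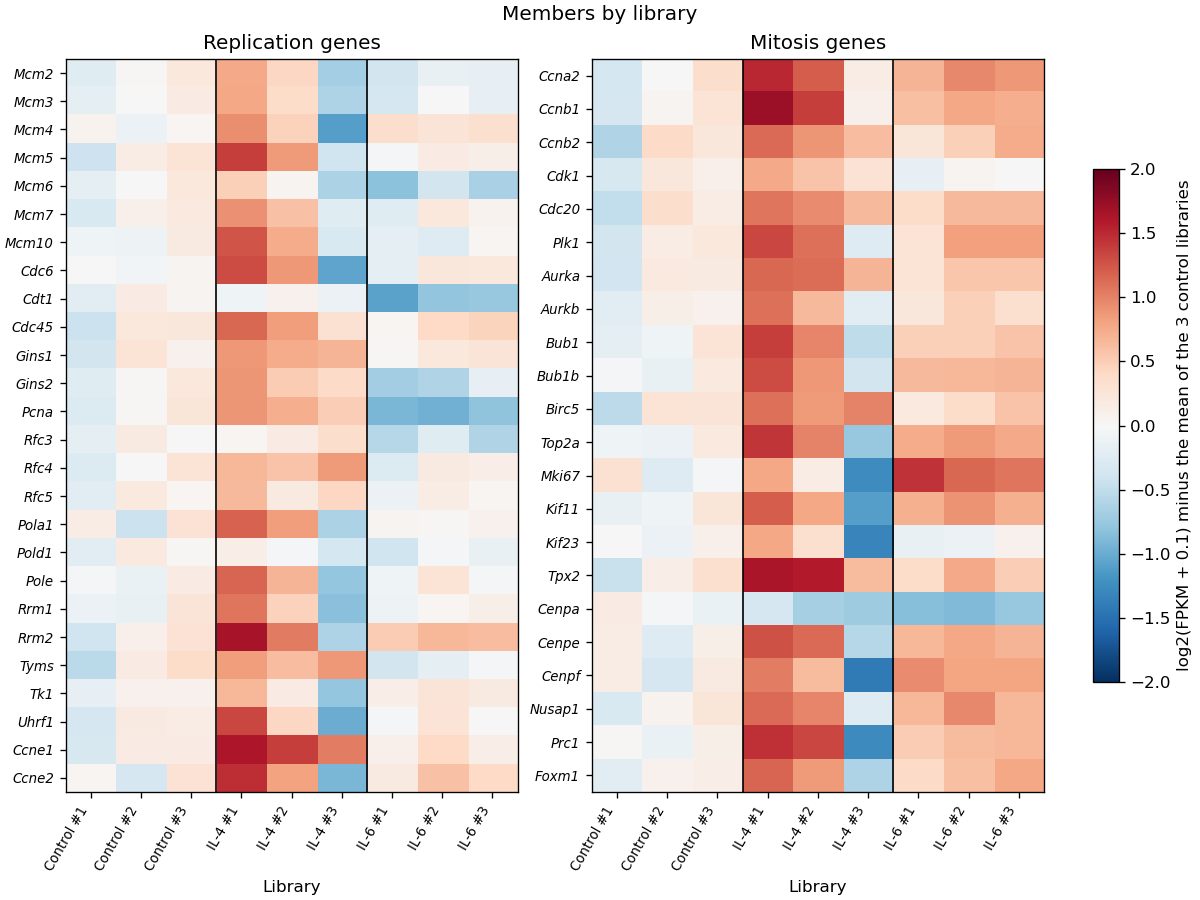
Each row is a member, each column a library, and the colour is log2(FPKM + 0.1) minus the mean of the 3 control libraries, with replication genes on the left and mitosis genes on the right. IL-4 #1 and #2 are red in most rows and IL-4 #3 is blue in many, while the IL-6 libraries are red in most mitosis rows and pale in most replication rows.

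IL-4 was compared with control to ask how an alternatively activating cytokine moves the cell cycle genes. In IL-4 #1 and #2 most members stood above all 3 controls: 21 of 26 replication genes and 20 of 22 mitosis genes, where 23.6% of all tested genes did so. In IL-4 #3, 14 replication and 11 mitosis genes lay below every control instead, as did 58.9% of all tested genes. IL-4 #3 lay above every control for 9 and 6 of them (30.0% of all genes). It was the lowest IL-4 library for 22 replication and 21 mitosis genes, but the share over all genes was not counted. The whole library was shifted, with a median log2 difference to IL-4 #1 and #2 of -0.35 over all tested genes. That median was -1.09 for replication and -1.45 for mitosis genes. All 3 IL-4 libraries lay above all controls in 7 replication and 6 mitosis genes (13.5% of all genes) and below them in 1 mitosis gene, Cenpa (26.8%).

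With all libraries, limma found 4 replication genes higher with IL-4 at an adjusted p under 0.05 and none lower, against 8.55% of all genes higher and 16.3% lower. Ccne1 was called, that is, it also passed a log2 fold change of 1, as did 5.02% of all genes. Ccne1 (chr7:38097984-38107534) encodes cyclin E1, the partner of Cdk2 at entry into S phase. It measured 1.25, 1.79 and 1.79 FPKM in the controls and 5.07, 4.30 and 3.32 FPKM with IL-4. All 3 IL-4 libraries lay above all controls, and the log2 fold change was 1.34 ± 0.21 (SE; limma adjusted p = 0.00271, exact permutation p = 0.1, the smallest that 3 against 3 allows).

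Pcna, the sliding clamp (chr2:132249162-132253314), was the most abundant member. Its level was 80.1, 98.1 and 114 FPKM in the controls and 178, 159 and 135 FPKM with IL-4. The groups did not overlap, and the rise of 0.70 ± 0.16 on the log2 scale had a limma adjusted p of 0.0144. Gins1, a GINS subunit, rose by 0.76 ± 0.19 (adjusted p = 0.0181). Rfc4, a subunit of the clamp loader, rose by 0.69 ± 0.19 (adjusted p = 0.0300), and 12.7% of its exonic bases are shared with Eif4a2 on the opposite strand. The median log2 fold change of the 26 replication genes was 0.42, against -0.20 for all tested genes. The counts changed with the model. With the library set as a term, the IL-4 change is that of IL-4 #1 from the controls, since no other IL-4 library shares their set. That fit thus rests on 1 IL-4 library. With only the IL-4 and control libraries in the model, Ccne1 (1.34, adjusted p = 0.0180) was the single replication gene higher and Aurka (0.98, adjusted p = 0.0477) the single mitosis gene, and none was lower, against 5.68% of all genes higher and 8.91% lower. When the library set was added to the model, Ccne1 (1.61, adjusted p = 0.0117) and Pcna (0.88, adjusted p = 0.0430) were higher, no mitosis gene passed in either direction, and 4.57% of all genes were higher and 6.09% lower.

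Among mitosis genes 5 were higher and 1 lower. Tpx2, which activates Aurora A on the spindle (chr2:152847964-152895321), was called. It measured 2.34, 3.53 and 4.05 FPKM in control and 10.2, 9.92 and 5.03 FPKM with IL-4. IL-4 #3 was the lowest of the 3 but still above the controls, and the log2 fold change was 1.28 ± 0.31 (adjusted p = 0.0182). Without Control #1 or IL-4 #2 this call was lost (adjusted p = 0.0656 and 0.0618). Aurka, the Aurora A kinase itself, rose by 0.98 ± 0.21 (adjusted p = 0.0116), and Birc5, the survivin subunit of the chromosomal passenger complex, by 0.98 ± 0.23 (adjusted p = 0.0161). Cdc20 rose by 0.89 ± 0.23 (adjusted p = 0.0239) and Ccnb2 by 0.88 ± 0.27 (adjusted p = 0.0473).

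Cenpa, the histone H3 variant of centromeres (chr5:30666777-30674830), went the other way. The controls held 14.3, 12.5 and 11.7 FPKM and the IL-4 libraries 10.1, 8.02 and 7.79 FPKM. It fell by 0.57 on the log2 scale (SE 0.14, adjusted p = 0.0185), and no library overlapped. That fall did not pass with only these groups in the model (adjusted p = 0.0745), with the set as a term (0.277), with median-ratio scaling (0.0648) or with a length and GC trend removed by median length (0.249). With the trend removed by longest transcript the fall of Cenpa did pass (-0.62, limma adjusted p = 0.0117). The median over the 22 mitosis genes was 0.60. Several of these results were near the threshold. Leaving out 1 library at a time took the adjusted p past 0.05 for Cenpa without Control #1, Control #2 or IL-4 #2 (0.0553 to 0.0731) and for Gins1 without Control #3 (0.0510). It did so for Rfc4 without Control #1, Control #2, IL-4 #1, IL-4 #2 or IL-6 #3 (0.0525 to 0.104), and for Cdc20 without Control #1, Control #3, IL-4 #1 or IL-4 #2 (0.0524 to 0.0670). Ccnb2 missed it without any 1 of 7 libraries, all but Control #2 and IL-4 #3 (0.0652 to 0.107).

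Without IL-4 #3 the counts were far larger. Of the replication genes 19 were higher and none lower (6 called), and of the mitosis genes 20 were higher and 1 lower (14 called), against 15.1% of all genes higher, 22.5% lower and 6.46% called higher. The medians were 0.76 and 1.04, against -0.07 for all genes. The largest mitosis changes were in Tpx2 (1.61 ± 0.22, adjusted p = 0.00102), Ccnb1 (cyclin B1; 1.55 ± 0.19, adjusted p = 0.000572) and Prc1, which bundles midzone microtubules (1.39 ± 0.13, adjusted p = 0.000141). Ccne1 (1.5 ± 0.19, adjusted p = 0.000661) and Rrm2, the small subunit of ribonucleotide reductase (1.34 ± 0.23, adjusted p = 0.00310), led the replication genes. Other called replication genes were Mcm5, Cdc6, Ccne2 and Pola1, the catalytic subunit of the primase-polymerase. Cdt1, Pold1, Rfc3 and Mcm6 stayed within 0.27 of control on the log2 scale, with adjusted p of 0.308 or more.

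Members not yet named are given for that comparison, again without IL-4 #3, and each that rose had an adjusted p of 0.0404 or less. Helicase subunits Mcm2, Mcm3, Mcm4 and Mcm7 rose by 0.58 to 0.75. Cdc45 and Mcm10, which act when the helicase is switched on, both rose by 0.99, and Pole, the catalytic subunit of polymerase epsilon, by 0.92. Rrm1, the large subunit of ribonucleotide reductase, rose by 0.77 and Uhrf1, which helps to copy DNA methylation to the new strand, by 0.87. The clamp loader subunit Rfc5 (0.42, adjusted p = 0.104) and the thymidine kinase Tk1 (0.42, adjusted p = 0.0862) did not pass. The mitotic kinase Plk1 rose by 1.22, the checkpoint genes Bub1 and Bub1b by 1.17 and 1.08, the kinetochore motor Cenpe by 1.20 and the spindle protein Nusap1 by 1.06. Foxm1, a transcription factor of G2 and M genes, rose by 1.0, Aurkb, the kinase of the passenger complex, by 0.88, the kinetochore protein Cenpf by 0.83 and Kif23, a midzone motor, by 0.55. With all libraries none of these genes passed in any of the 3 comparisons.

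IL-4 #3 differed from IL-4 #1 and #2 in a way that followed transcript length. Over the 48 members the Spearman correlation between its log2 difference to the other IL-4 libraries and transcript length was -0.461, and over 12809 tested genes -0.429, with length taken as the median over a gene's protein-coding transcripts. That median is short for genes with many truncated annotated transcripts, so length was also taken from the longest protein-coding transcript, after the first result had been seen, which gave -0.594 and -0.525. Both definitions show the same direction, and the second gives the stronger relation. Genes are not independent replicates and share the libraries, so these values are descriptions. By the first definition the median difference of all genes ran from 0.20 under 1500 bases to -1.12 at 4000 bases or more. The 6 members of at least 4000 bases had a median of -1.75, and the 12 under 1500 bases a median of -0.43. Over all lengths the median was -1.24 for the 48 members and -0.35 for all genes. The members thus lay below all genes of similar length as well, in every length bin, and the cause was not tested.

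**Figure D2:**
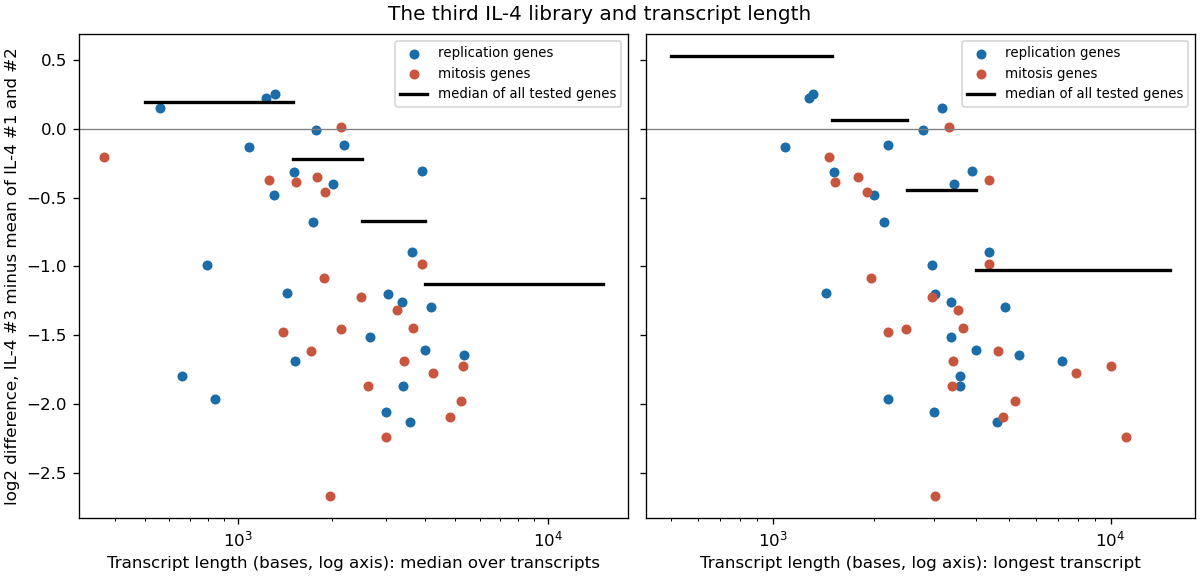
Each point is a member, the x axis is transcript length in bases (log axis; left, median over protein-coding transcripts; right, longest transcript), the y axis is log2(FPKM + 0.1) in IL-4 #3 minus the mean of IL-4 #1 and #2, and black bars are medians of all tested genes in 4 length bins. Long members lie lower than short ones under both definitions, and so do the medians of all genes.

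IL-6 was compared with control to ask the same question for the cytokine that the study set against IL-4. In 17 of 22 mitosis genes the lowest IL-6 value exceeded the highest control value, against 20.0% of all tested genes, and in 1 the order was the opposite, against 23.2%. Among the 26 replication genes 3 lay wholly above and 4 wholly below. The median log2 fold changes were 0.59 and 0.02, against -0.00 for all genes.

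With all libraries, none of the mitosis genes passed an adjusted p of 0.05 as higher in limma, where 4.58% of all genes did. At an unadjusted p under 0.05 there were 3, and voom on recovered fragments also gave 0 at the adjusted level. The standard error is shared with the IL-4 libraries, and without IL-4 #3, while the control and IL-6 values are the same, 11 mitosis genes passed as higher, against 12.4% of all genes, and Mki67 was called, as were 5.19% of all genes. They are Mki67, Top2a, Ccna2, Kif11, Ccnb1, Prc1, Bub1b, Cenpe, Cenpf, Nusap1 and Foxm1. With only the control and IL-6 libraries in the model, 11 mitosis genes and 1 replication gene, Mcm4, were higher and 1 and 3 lower, against 11.3% of all genes higher and 10.8% lower. When the library set was added to the model no member passed in either direction, where 1.15% of all genes were higher and 0.312% lower. The medians were then 1.59 for mitosis and 0.74 for replication genes. Only IL-4 has libraries in both sets, so the set term comes from IL-4 #1 against IL-4 #2 and #3. That fit therefore does not separate the set from IL-6.

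Mki67 had 10.1, 6.83 and 8.01 FPKM in control, 22.5, 18.3 and 17.5 FPKM with IL-6, and 14.0, 9.16 and 3.36 FPKM with IL-4. The IL-6 libraries were the highest 3 of the 9. Its log2 fold change was 1.22 with an SE of 0.45 (adjusted p = 0.163) over all libraries and an SE of 0.20 (adjusted p = 0.00424) without IL-4 #3. Top2a, the topoisomerase that untangles sister chromatids (chr11:98992943-99024189), measured 5.33, 5.19 and 6.49 FPKM in control and 9.51, 10.3 and 9.61 FPKM with IL-6. Those groups did not overlap, and the change of 0.79 had an adjusted p of 0.423 over all libraries and 0.00507 without IL-4 #3. Ccna2, cyclin A2, gave 0.84 (adjusted p = 0.210 and 0.0143), and the spindle motor Kif11 0.77 (adjusted p = 0.466 and 0.00934).

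Cenpa again lay below control, at 7.10, 6.93 and 7.52 FPKM. It fell by 0.83 on the log2 scale (SE 0.14, adjusted p = 0.00906), and was the single mitosis gene to pass in that direction, where 3.82% of all genes did. Without IL-6 #2 its adjusted p was 0.0522, and with the set as a term 0.271.

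With all libraries, Cdt1 and Pcna were the replication genes lower with IL-6, and none was higher. Cdt1, the licensing factor (chr8:122568015-122573554), held 9.45, 12.2 and 11.3 FPKM in control, 10.3, 11.6 and 10.0 FPKM with IL-4 and 5.19, 6.26 and 6.44 FPKM with IL-6. Its IL-6 libraries were below all others, by 0.87 on the log2 scale against control (SE 0.15, adjusted p = 0.00870), with IL-4 and control overlapping. Pcna had 51.0, 49.5 and 55.1 FPKM with IL-6 and fell by 0.90 (SE 0.16, adjusted p = 0.0118). Without Control #3 the adjusted p was 0.0523 for Cdt1 and 0.0553 for Pcna, and for Pcna it was also between 0.05 and 0.07 without Control #2, IL-6 #1 or IL-6 #2. With the set as a term neither passed (0.157 and 0.271). Without IL-4 #3, Mcm6 (-0.61, adjusted p = 0.0324) and Rfc3 (-0.47, adjusted p = 0.0472) passed as lower too, making 4 of 26, where 12.4% of all genes were lower.

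**Figure D3:**
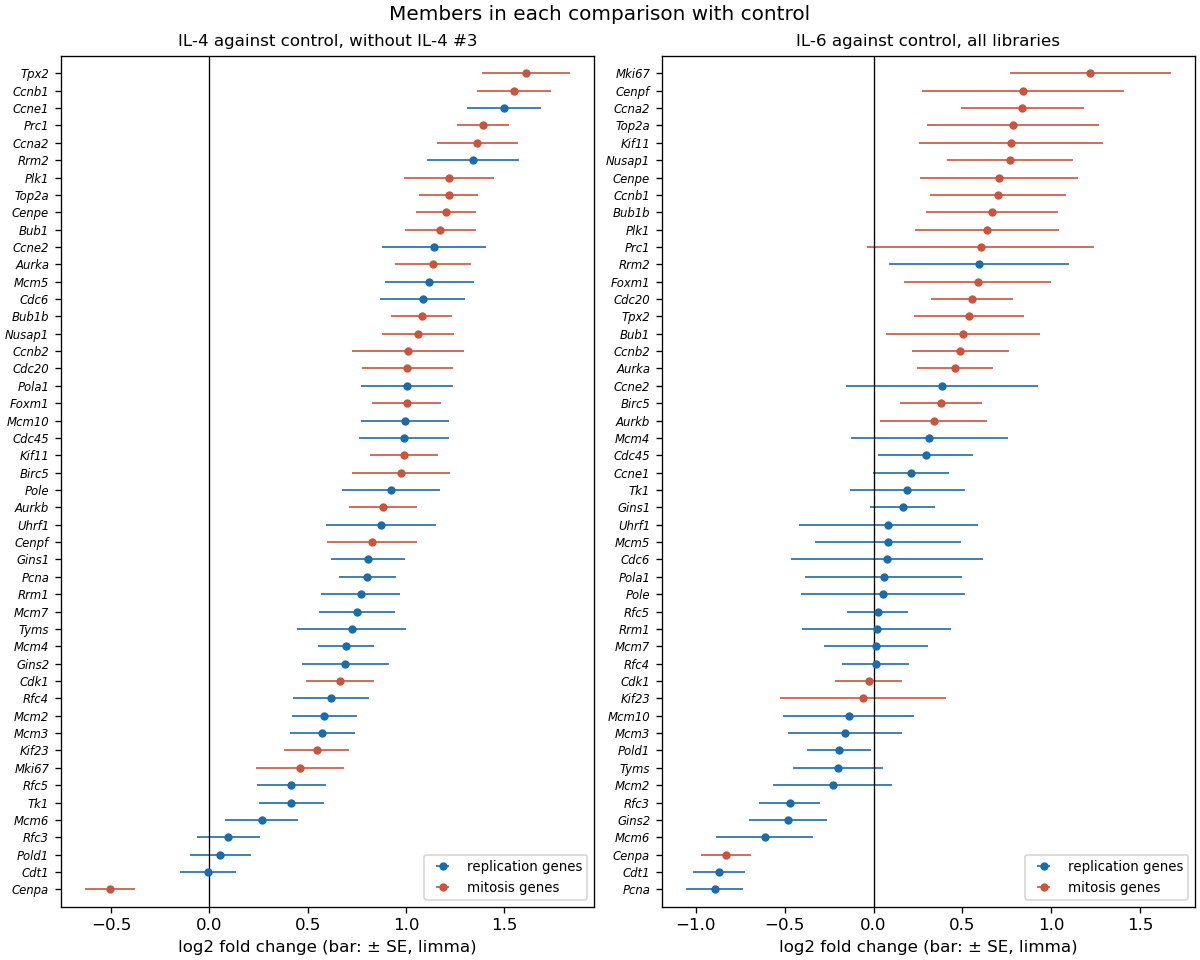
Points are log2 fold changes of the 48 members with limma standard errors, for IL-4 against control without IL-4 #3 (left) and IL-6 against control with all libraries (right), sorted by value, with replication genes in blue and mitosis genes in red. On the left both colours mix above 0, whereas on the right red points fill the top and blue points lie around and below 0, with Cenpa low in both.

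The separation of the subsets was visible library by library. The mean log2 difference to the control mean was -0.21, 0.03 and -0.01 for replication genes in the IL-6 libraries and 0.42, 0.58 and 0.57 for mitosis genes. Mitosis minus replication was thus 0.63, 0.55 and 0.58 with IL-6, against -0.02 to 0.02 in the controls. In IL-4 #1, #2 and #3 it was 0.22, 0.29 and -0.08. The IL-6 libraries were the 3 highest, and no IL-4 or control library reached them. No test was made of this difference, since the members were chosen with results known.

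**Figure D4:**
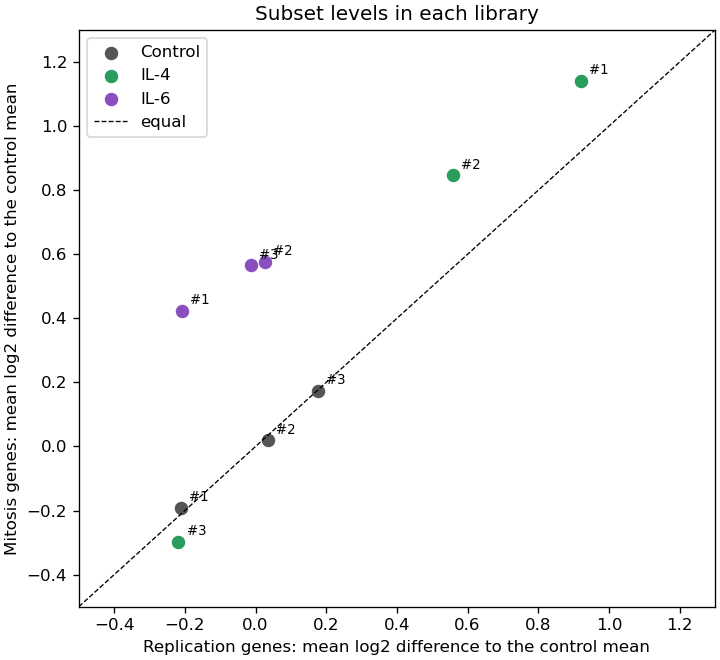
Each point is a library, with the mean log2 difference to the control mean of the 26 replication genes on the x axis and of the 22 mitosis genes on the y axis, and the dashed line marks equal values. The IL-6 libraries lie 0.55 to 0.63 above the line, IL-4 #1 and #2 lie 0.22 and 0.29 above it at higher values of both, and IL-4 #3 lies among the lowest points.

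IL-6 was then set against IL-4 directly. Of the replication genes 8 were lower with IL-6 and none higher (3 called), against 13.3% of all genes lower and 6.82% called lower. Pcna fell by 1.59 on the log2 scale (SE 0.16, adjusted p = 0.000169). Ccne1 fell by 1.13 (SE 0.21, adjusted p = 0.00466), and Gins2, another GINS subunit, by 1.07 (SE 0.22, adjusted p = 0.00670), although 67.3% of the exonic bases of Gins2 are shared with Gse1 on the opposite strand. The other genes were Cdt1, Gins1, Rfc3, Rfc4 and Tyms, the thymidylate synthase. Of the mitosis genes, Cdk1, the mitotic kinase, was lower (-0.57 ± 0.19, adjusted p = 0.0493). With only these groups in the model, 7 replication genes and no mitosis gene were lower (9.68% of all genes), and with the set as a term also 7 and none (14.6%), with Mki67 called higher (1.78, adjusted p = 0.0125). With that term the IL-4 side of the comparison is IL-4 #2 and #3. Leaving out any 1 of 7 libraries, all but Control #1 and IL-4 #3, took Cdk1 past 0.05 (0.0584 to 0.151), as 6 libraries did for Gins1, namely Control #3, IL-4 #1, IL-4 #2 and the 3 IL-6 libraries (0.0628 to 0.123). Rfc3 and Rfc4 went above 0.05 without IL-6 #1 or IL-6 #3, and Tyms without IL-6 #1 or IL-6 #2 (0.0561 to 0.0929). Every IL-6 library was below every IL-4 library in 9 replication and 5 mitosis genes (20.6% of all genes), and above in Mki67 (36.3%). The medians were -0.40 and -0.10, against 0.22 for all genes.

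Without IL-4 #3, 20 replication genes were lower (6 called), as were 9 mitosis genes, and Mki67 was higher (0.76 ± 0.22, adjusted p = 0.0272), against 18.3% of all genes lower, 6.44% called lower and 24.9% higher. IL-4 #1 and #2 both exceeded every IL-6 library in 25 replication and 19 mitosis genes (30.4% of all genes). The medians were -0.77 and -0.52, against 0.096 for all genes. Within the libraries that hold few intestinal fragments, IL-6 minus IL-4 #2 gave medians of -0.60 and -0.38, against 0.095 for all genes. Within the others IL-4 #1 minus control gave 0.90 and 1.16, against -0.059. Each of these within-set differences rests on 1 IL-4 library and has no replicate check. With IL-4 #3 kept beside IL-4 #2, the first difference had medians of -0.16 for replication and 0.24 for mitosis genes, against 0.29 for all genes. Of the mitosis genes 14 then lay above 0 and 8 below.

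Genes of the same processes outside the 48 were read from wider lists. Of 56 other mitosis genes tested, 10 were higher with IL-4 and none lower, and without IL-4 #3 these counts were 46 and 1, beside the 8.55% and 15.1% of all genes higher already given. With IL-6 against control none passed, and without IL-4 #3 20 were higher (12.4% of all genes). With IL-6 against IL-4 6 were lower and none higher, and without IL-4 #3 25 and 1, where 13.3% and 18.3% of all genes were lower. Ube2c, the ubiquitin-conjugating enzyme of the anaphase-promoting complex, rose most with IL-4 (1.32, adjusted p = 0.00511), followed by Cks1b (1.09, adjusted p = 0.0167), Cdca3 (1.05, adjusted p = 0.0165) and Cdca5 (1.02, adjusted p = 0.0411). Of 44 other replication genes, 4 were higher and 2 lower with IL-4, and Dut, which clears dUTP, was called (1.83, adjusted p = 0.00363). Without IL-4 #3 16 of 45 were higher and 2 lower. With IL-6 against control none passed, and without IL-4 #3 1 was higher and 3 lower. With IL-6 against IL-4 7 were lower and none higher, and without IL-4 #3 23 and none.

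Regulators upstream of the members were read from lists of their own. Of 19 genes tested in a list of E2F, Rb and MuvB factors that also holds Myc, 1 was higher with IL-4, namely Myc. None of the 19 passed with IL-6. With IL-6 against IL-4, 2 were higher and 1, again Myc, was lower, where 20.8% of all genes were higher and 13.3% lower. Without IL-4 #3, 4 were higher and 1 lower with IL-4, the same numbers with IL-6, and 3 higher and 3 lower between the cytokines. Of 8 G1 cyclins and their kinases, 1 was lower with IL-4, none passed with IL-6, and 1 was higher and 1 lower between the cytokines. Without IL-4 #3 these were 2 higher and 1 lower, 1 and 2, and 1 and 1. Of 15 inhibitors and arrest genes, 4 were higher and 4 lower with IL-4, 2 and 1 with IL-6, and 5 and 3 between them. Without IL-4 #3, of 13 tested, these were 3 and 5, 5 and 2, and 5 and 2. The 15 include Cdkn2a and Cdkn2b, which passed the filter on low values only through the IL-4 libraries. Their part in the counts with IL-4 and between the cytokines is therefore not read as a result. Over all genes the shares higher and lower were 8.55% and 16.3% with IL-4, 4.58% and 3.82% with IL-6, and 20.8% and 13.3% between them. Without IL-4 #3 these shares were 15.1% and 22.5%, 12.4% and 12.4%, and 24.9% and 18.3%.

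Myc, a driver of G1 entry, measured 2.16, 3.33 and 3.84 FPKM in control, 15.2, 18.0 and 15.6 FPKM with IL-4 and 1.72, 2.32 and 2.52 FPKM with IL-6. It rose by 2.38 with IL-4 (adjusted p = 0.000227), and IL-6 and IL-4 did not overlap. Of the D-type cyclins, Ccnd1 was 2.61 lower (adjusted p = 0.00488) and Ccnd3 1.75 higher (adjusted p = 0.000666) with IL-6 than with IL-4, on the log2 scale. Without IL-4 #3 the values were -3.23 and 1.52. E2f1 held 9.33 to 11.9 FPKM in all libraries.

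Among the inhibitors of cyclin-dependent kinases, Cdkn1c fell with both cytokines. It had 3.64, 6.25 and 5.33 FPKM in control, 0.875, 1.04 and 1.52 FPKM with IL-4 and 0.225, 0.270 and 0.144 FPKM with IL-6, with no overlap between any groups (-2.05 on the log2 scale with IL-4, adjusted p = 0.00150, and -4.03 with IL-6, adjusted p = 0.000190). Cdkn1b fell by 1.03 with IL-4 (adjusted p = 0.0198) and was 1.45 higher with IL-6 than with IL-4 (adjusted p = 0.00330). Without IL-4 #3 the first change was -0.73 (adjusted p = 0.00515), short of a call. Cdkn1a rose by 0.99 with IL-4 (adjusted p = 0.000229) and by 0.72 with IL-6 (adjusted p = 0.00369). Cdkn2a held at most 0.0569 FPKM in control and 0.235 FPKM with IL-6, and 1.10, 1.32 and 2.99 FPKM with IL-4. Cdkn2b held 0.123 to 0.205, 0.264 to 0.304 and 0.987 to 2.48 FPKM in the same order. Both passed the filter on low values only through the IL-4 libraries, so no test is given for them, though both stand among the 4 counted higher. Rb1 was 1.16 higher with IL-6 than with IL-4 (adjusted p = 0.0372), and 0.75 (adjusted p = 0.0337), short of a call, without IL-4 #3. In the same lists the antiproliferative gene Btg1 rose by 1.22 with IL-6 (adjusted p = 0.000182). Socs3, a direct response to IL-6, rose by 5.12 (adjusted p = 3.02e-05), and Arg1, a response to IL-4, by 10.58 (adjusted p = 1.95e-06), with Retnla and Chil3 called as well. These 3 were also called higher with IL-6, by 2.39 (Arg1), 2.44 (Retnla) and 1.01 (Chil3).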

How the data were processed

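The deposited values are FPKM per gene in 9 libraries of mouse BM-derived Mϕs, made with a stranded mRNA kit. The submitters' processing notes name STAR 2.4.2a, Cufflinks 2.2.1 and GRCm38. Of 53379 identifiers, 94.8% matched GENCODE M21 with version. Of 157843 FPKM values above 0 and under 2000 fragments in matched genes, 100.0% were whole fragments within 0.05. Whole fragments over exon lengths are what a read counter would give, while the notes name Cufflinks. The authors' program and annotation are therefore not settled. Recovered counts ran from 67 to 14614 fragments for the 44 members matched with version.

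log2(FPKM + 0.1) of 12824 genes with a mean of at least 0.5 FPKM entered limma 3.58.1 (R 4.3.3) as 1 model of 3 groups, using trended, robust eBayes and Benjamini-Hochberg adjustment over all genes. Called genes passed 0.05 on the adjusted p and also 1 on the absolute log2 fold change. Exact permutation tests (scipy 1.17.1) were two-sided. The code was tested on simulated data. The sample titles give each replicate a number, the column headings an m with that number, and the paper's legend gives 3 mice. None says whether a number is the same mouse in every group. The p-values measure the spread between these libraries.

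Members and lists were chosen with earlier results of these data known. Named were members, up to 4 called genes per other list of the same processes, called regulators and 4 treatment checks, and marker lists are given as counts and sums. E2f1 and Cdkn1a were named after their values were seen. The model holds no replicate block, since the labels do not say what a shared number stands for. Alternatives covered pseudocount, filter, scaling, samples, replicate block, set of libraries and, added after seeing the data, voom on fragments, combinations without IL-4 #3, and removal of a length and GC trend. Transcript length was defined in 2 ways, first as the median and then as the longest coding transcript, and both are reported.

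Of the members, 9 share at least 5% of exonic bases with a gene on the opposite strand, and strand use in counting is not given in the sources used here. RefSeq promoters of 9 members were not used here.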

Additional observations from a re-analysis of the deposited data

How the results depend on the processing

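The third IL-4 library set most counts, and its cause was not tested. When the set of libraries is a term, that term comes from the IL-4 libraries alone. The IL-4 change from control then rests on IL-4 #1. Called higher with IL-4 against control were 1 replication and 1 mitosis gene. Leaving out 1 library at a time gave 1 to 6 and 0 to 14, the highest without IL-4 #3. The counts were 4 and 5 on adjusted p alone (1 mitosis gene lower), 0 replication genes with a pseudocount of 1 or a mean of at least 5 FPKM, 2 and 7 with quantile normalization, 7 mitosis genes with median-ratio scaling, 3 with a pseudocount of 0.01 or voom, and 0 with only the groups compared or the set as a term. With the length and GC trend removed, 6 mitosis genes passed by median length and 4 by longest transcript. Without IL-4 #3 as well, the counts were 5 and 12 by median length and 5 and 13 by longest transcript, 11 and 16 with the set as a term, and 8 and 16 with the replicate block. Called lower with IL-6 against IL-4 were 3 replication and 0 mitosis genes. The replication count was 8 on adjusted p alone. It was 1 with a pseudocount of 1, a mean of at least 5 FPKM or the library set in the model. Median-ratio scaling gave 5 and quantile normalization 6, and trend removal gave 7 by median length and 5 by longest transcript. Leaving out IL-4 #3 as well gave 10 by median length, 9 by longest transcript and 8 with the block. With IL-4 #3 left out and the library set modelled, 2 were called lower, and IL-4 #2 alone then stands for IL-4. Leaving out 1 library gave 1 to 6. The mitosis count lower was 1 on adjusted p alone, under both length definitions, and in all 4 combined settings without IL-4 #3, and 0 to 1 on leaving out 1 library. The mitosis count higher (0) was 1 with a pseudocount of 1, a mean of at least 5 FPKM, median-ratio scaling, quantile normalization, voom, the set as a term (also without IL-4 #3) and the replicate block, and 0 to 1 on leaving out 1 library. For IL-6 against control, adjusted p alone gave 2 replication genes and 1 mitosis gene lower, and leaving out 1 library 0 to 1 replication genes lower and 0 to 1 mitosis genes higher. Mitosis genes higher were 1 with only the groups compared, and without IL-4 #3 1 with the replicate block and 2 with the set. The medians of 0.02 and 0.59 became 0.74 and 1.59 with the set as a term, and 0.39 and 0.86 without IL-4 #3 as well. The gap between them, 0.57, was 0.55 to 0.62 on leaving out 1 library, 0.42 with a pseudocount of 1, 0.63 at a mean of at least 5 FPKM, 0.85 with the set, 0.47 with the set without IL-4 #3, and 0.61 by longest transcript without IL-4 #3. With IL-4 the gap of 0.19 was 0.58 at a mean of at least 5 FPKM, where fewer members are tested by construction, and 0.13 to 0.28 on leaving out 1 library. With the set as a term Mcm6 and Pold1 turned to 0.15 and 0.12 for IL-6 against control. Cenpf, at 0.76 for IL-6 against IL-4, turned to -0.062 by longest transcript and, without IL-4 #3, to -0.021 with the block, -0.14 by median length and -0.30 by longest transcript. Over all genes, 644 were called higher and 1140 lower with IL-4, and 847 and 866 with median-ratio scaling, which moved the median of all genes from -0.20 to -0.00. In 150 bases before the start, 38.1% of replication promoters held an E2F word and 14.3% a CHR word, and 50% of mitosis promoters a CHR word. Libraries of the same number had deviations that correlated between -0.415 and 0.521, not above 0.1 in every pair. Deviations from means of 3 libraries cannot settle whether a shared number stands for the same mouse, so a pairing was neither shown nor excluded. Under the replicate block the adjusted p was 0.0677 for Ccnb2 (IL-4) and 0.0703 for Cdk1 (IL-6 against IL-4), Mki67 was called higher with IL-6 than with IL-4 (1.34, 0.0336 against 0.0518), and no other call or count of called members with all libraries changed. Most members hold few FPKM, which limits the precision of single genes.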
